A study of Mus musculus with 6 samples.

Results

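The ETS transcription factor genes Ets1, Ets2, Elf1, Elf3, Ehf, Etv4, Etv5, Etv6 and Elk3 were described by the accessible chromatin around them in mouse intestinal organoids, which are epithelial cultures grown from crypts. A consensus ATAC-seq peak was counted for one of these 9 genes when its centre lay within 50 kb of an end of the gene and nearer to it than to an end of any other protein-coding gene. Of the 90823 peaks in the count table, 101 met this rule, and 100 of them had enough counts to be tested. The study compared organoids treated for 3 days with vehicle, with 25 µM arachidonic acid (AA) or with 50 nM prostaglandin E2 (PGE2), with 2 libraries in each of the 3 groups. AA is the fatty acid from which prostaglandins are made. The compound of the PGE2 group is a dimethyl form of PGE2 in the series description and PGE2 in the treatment protocol. It is named here as the sample labels name it. All groups shared a medium with EGF, Noggin, R-spondin, N-acetyl-L-cysteine, the GSK3 inhibitor CHIR-99021, the ROCK inhibitor Y-27632 and the B27 and N2 supplements. EGF in that medium is itself an activator of the ERK pathway, also in the vehicle libraries. Epithelial cells were sorted before the Omni-ATAC reaction, a form of ATAC-seq in which a transposase inserts adapters into open DNA. The sources used here do not give the strain, age or sex of the mice, or say whether the libraries of a group came from separate cultures. The p-values below measure only how far these libraries spread, estimated mostly from all peaks together, and that spread may be technical.

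ETS factors bind DNA through a shared ETS domain that reads a GGAA core, and many of them are phosphorylated by ERK downstream of growth factor receptors. Ets1 and Ets2 are activators of this kind. Elf3 and Ehf belong to a subgroup found in epithelia, where they act in differentiation, and Elf1 is a broadly expressed relative. Etv4 and Etv5 form the PEA3 subgroup, whose genes are themselves induced by FGF and ERK signalling. Etv6 is a repressor that polymerises through its pointed domain, and Elk3 is a ternary complex factor that binds with SRF and represses until ERK phosphorylates it.

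The promoters shown first are those of Ets2, Etv5 and Etv6, whose start peaks gained signal under PGE2, with that of Elf3, whose start peak kept a similar level or was lower by 0.17 (log2 change -0.17) with gene-end peaks scaled on their own, beside them. The 4 were chosen after the values were seen. Each sequence is the 250 bases before the annotated start, 5′ to 3′ on the strand of the gene, from RefSeq on GRCm38.p6, with motif matches in capitals. Each lies inside the start peak described below.
Ets2 promoter, plus strand, chr16:95702157-95702406: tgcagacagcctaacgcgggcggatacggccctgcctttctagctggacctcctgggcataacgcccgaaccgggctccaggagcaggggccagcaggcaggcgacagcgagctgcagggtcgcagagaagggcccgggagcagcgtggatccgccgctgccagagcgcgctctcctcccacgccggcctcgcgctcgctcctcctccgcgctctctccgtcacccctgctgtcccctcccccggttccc
Etv5 promoter, minus strand, chr16:22439571-22439820: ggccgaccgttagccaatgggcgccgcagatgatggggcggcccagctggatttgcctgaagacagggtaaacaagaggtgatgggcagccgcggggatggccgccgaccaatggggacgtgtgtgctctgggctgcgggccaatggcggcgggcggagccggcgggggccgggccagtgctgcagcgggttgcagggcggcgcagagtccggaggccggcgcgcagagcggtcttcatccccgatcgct
Etv6 promoter, plus strand, chr6:134035450-134035699: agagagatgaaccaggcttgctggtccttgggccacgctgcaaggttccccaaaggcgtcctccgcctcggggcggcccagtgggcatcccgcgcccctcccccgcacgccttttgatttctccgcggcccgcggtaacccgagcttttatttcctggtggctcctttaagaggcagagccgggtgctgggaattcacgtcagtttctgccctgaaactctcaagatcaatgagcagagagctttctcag
Elf3 promoter, minus strand, chr1:135258473-135258722: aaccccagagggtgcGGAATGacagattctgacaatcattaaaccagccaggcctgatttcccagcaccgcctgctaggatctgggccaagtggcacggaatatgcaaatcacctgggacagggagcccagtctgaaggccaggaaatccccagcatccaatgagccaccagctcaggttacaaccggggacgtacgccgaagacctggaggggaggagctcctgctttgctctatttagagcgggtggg
The Ets2 window was 71.6% G and C, that of Etv5 71.2%, that of Etv6 60.4% and that of Elf3 57.2%, against a median of 52.4% over all 32851 promoter windows of the table. Short motifs were searched on both strands by their letters: CCGGAA (ETS), TGANTCA (AP-1), TGACGTCA (CRE, the site read by CREB), GGAATG (TEAD) and TGTGGT (RUNX), none of which overlapped another in these windows. They occurred in 12%, 6.75%, 1.55%, 12.6% and 14.0% of all windows. Among the 8 windows found for 6 of the 9 genes there were 2 matches. The capitals in the Elf3 window mark GGAATG, 235 bases before the start, and a window at the downstream start of Elf1 held TGANTCA 23 bases before that start. The letters of the other motifs were not in these windows. GGAATG begins with the GGAA core of ETS factors, and that core alone was not searched. The table gave no window for Ets1, Ehf or Etv4.

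The 6 libraries held 12374232 to 14236985 counts, and 0.15% to 0.161% of the counts of a library lay in the ETS gene peaks. The share of counts in peaks within 1 kb of an annotated gene end ranged from 31.4% to 31.9% with vehicle, from 32.3% to 32.9% with AA and from 34.3% to 35.8% with PGE2. The PGE2 libraries also differed most from each other, with a chi-square per degree of freedom of 1.55 over all peaks against 1.10 for vehicle and 1.12 for AA. Signal is given as CPM, counts per 1000000 counts of the library's scaled total. The CPM of a locus, summed over the peaks of a gene, is instead per 1000000 scaled counts in peaks within 50 kb of a gene end. Locus values therefore run higher than sums of the peak values, which the marker sums below use. Peaks near 8 epithelial marker genes summed to 2450 to 2480 CPM with vehicle, 2530 to 2540 with AA and 2390 to 2410 with PGE2. Those near 8 endothelial genes summed to 249 to 257, 257 to 260 and 246 to 254 CPM in the same order. Those near 5 immune genes summed to 110.0 to 112, 106 to 110.0 and 114 to 120.0 CPM. Those near 5 stromal genes summed to 100 to 102, 92.5 to 94.0 and 96.1 to 97.5 CPM. The immune markers Lyz2 and Tyrobp and the stromal markers Col1a2, Col3a1 and Lum had no peak assigned. Whether other cells had a part in the results was not tested, and in these bulk libraries more cells with an open site and more opening per cell cannot be told apart.

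The 9 loci differed widely in accessibility per length of peak. With vehicle, the CPM of a locus, divided by the summed length of its peaks in kb, was highest at Elf3 (55.9 and 57.8 in the 2 libraries) and next at Ets2 (35.7 and 37.3). Etv5 (28.9 and 29.6) and Ehf (29.0 in both) followed and did not separate from each other. Etv4 (26.8 and 27.4) was below them, and Etv6 (12.7 and 13.3) had a lower level again. Elf1 (7.80 and 7.84) lay within the range of Ets1 (7.36 and 7.94), and Elk3 had the lowest level (5.69 and 6.18). With AA, Elk3 stood at 8.54 to 8.99 and no longer below Ets1, which was at 6.95 to 8.11. These levels cover only the peaks that the distance rule gives to each gene, which leaves out the start peaks of Elf1 and Etv6. The rule also left out 23 peaks inside Etv6 that lie over 50 kb from both of its ends, while 10 peaks inside Elf1 went to its neighbour Wbp4.

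**Figure D1:**
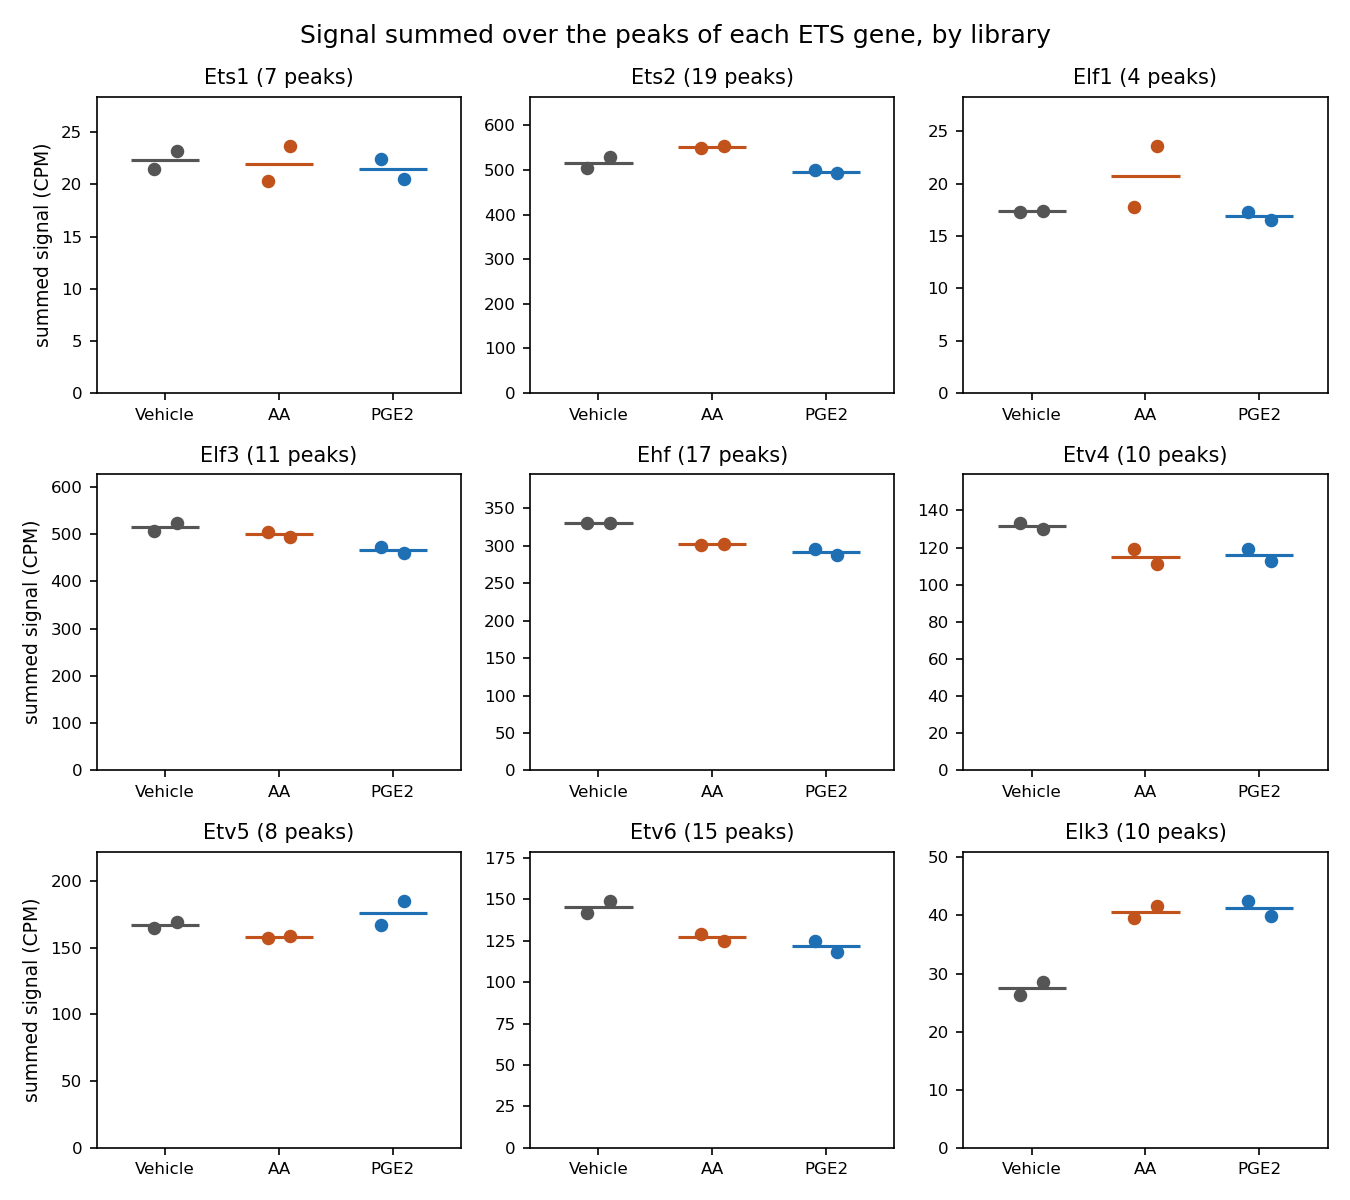
Signal summed over the peaks of each ETS gene (CPM, linear axis from 0) in each of the 6 libraries; points are libraries and lines are group means of 2. Elk3 rises from 26.3 and 28.6 CPM with vehicle to at least 39.5 CPM in each treated library, while Ehf, Etv4 and Etv6 lie lower in all treated libraries than with vehicle.

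AA moved ETS gene peaks in both directions. Against vehicle, 20 of the 100 tested peaks were called higher and 17 lower, which is 37.0% (edgeR quasi-likelihood test, Benjamini-Hochberg adjusted p under 0.05 over all 89347 peaks). Over all tested peaks 30.5% were called, 16.7% higher and 13.8% lower. The median log2 change was -0.04 at the ETS genes and -0.02 over all peaks. Higher peaks lay at 8 of the genes and lower peaks at 7. Leaving out Vehicle replicate 1 gave 12 higher and 12 lower, leaving out Vehicle replicate 2 gave 12 and 11, leaving out AA replicate 2 gave 13 and 12, and DESeq2 called 4 higher and 5 lower. Summed by gene, 2 loci were higher (Ets2 and Elk3) and 3 lower (Ehf, Etv4 and Etv6) at the same threshold, against 32.5% of all 16790 loci called, 16.5% higher and 16.0% lower. Of the 2 higher loci, 1 was left without Vehicle replicate 1 or without AA replicate 2.

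PGE2 also moved them in both directions, with 14 peaks called higher and 14 lower of 100, which is 28.0%. Over all peaks 24.9% were called with PGE2, 14.3% higher and 10.6% lower. The median log2 change was -0.08 at the ETS genes and -0.0 over all peaks. Without Vehicle replicate 2 there were 9 calls in each direction, and DESeq2 called 4 in each. At the locus level Elk3 was higher, and Elf3, Ehf, Etv4 and Etv6 were lower, with 38.6% of all loci called, 19.9% higher and 18.7% lower. Without PGE2 replicate 1 there were 2 higher loci, since Etv5 was then called at a log2 change of 0.16 (edgeR adjusted p = 0.00208). The same 2 vehicle libraries served both comparisons, so the changes are not independent of each other.

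Peaks at gene ends and peaks away from them were counted apart. Of the 8 ETS gene peaks within 1 kb of a gene end, 3 were called higher with PGE2 (Ets2, Etv4 and Etv5), against 32.1% higher and 5.33% lower among all gene-end peaks. With all peaks scaled together, none was called lower by edgeR, DESeq2 or at an unadjusted edgeR p under 0.05, and with gene-end peaks scaled on their own edgeR called the Elf3 start lower (-0.17, edgeR adjusted p = 0.00986). With AA, 1 of the 8 was higher and 1 lower, against 14.6% and 7.62% of all gene-end peaks. Away from gene ends, 11 of 92 ETS gene peaks were higher and 14 lower with PGE2, against 10.9% and 11.6% of all such peaks. With AA, 19 were higher and 16 lower, against 17.1% and 15.0%. The shares at the ETS genes were thus near those over all peaks of the same kind.

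**Figure D2:**
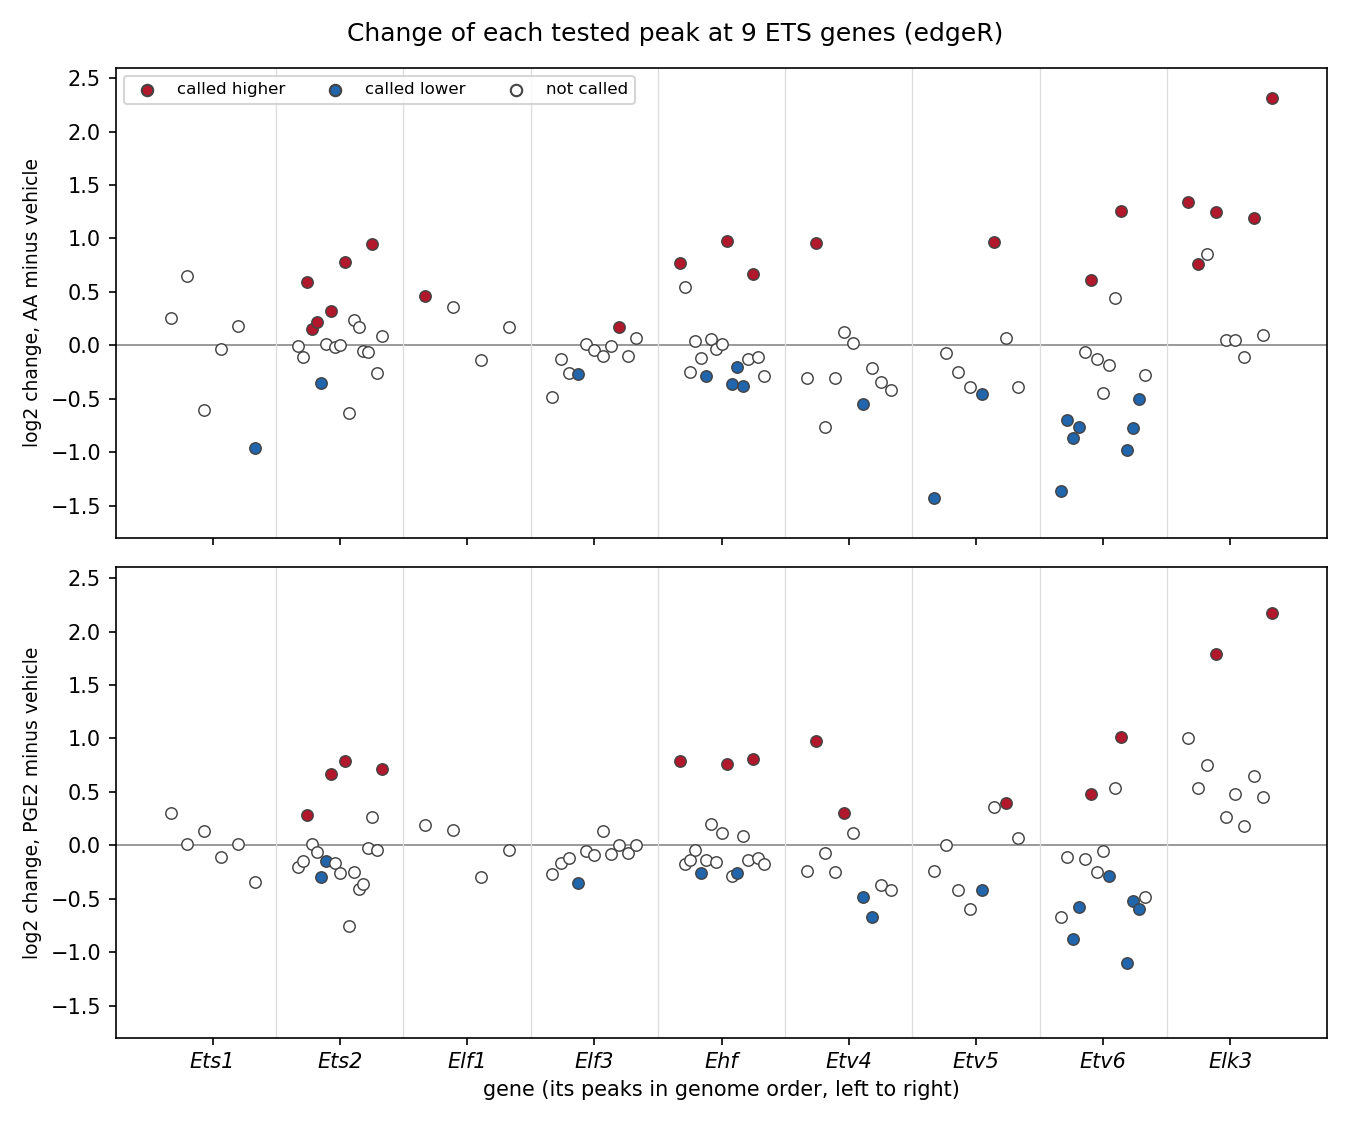
The log2 change of each of the 100 tested peaks against vehicle, for AA (top) and PGE2 (bottom), with the peaks of each gene in genome order; filled points passed edgeR's adjusted p of 0.05. Elk3 has no peak called lower, and Etv6 has more peaks called lower than higher in both panels.

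Ets2, an ERK-responsive activator, had 19 peaks and the clearest gain at its start. The peak over that start (chr16:95701817-95703058) read 33.9 and 33.3 CPM with vehicle, 40.3 and 44.0 with AA, and 48.2 and 58.6 after PGE2. The 3 groups did not overlap, and PGE2 was highest. The log2 change was 0.32 ± 0.08 (SE) with AA (edgeR adjusted p = 0.00214) and 0.67 ± 0.08 with PGE2 (edgeR adjusted p = 6.83e-08). Scaled on gene-end peaks alone, the PGE2 change was 0.49, and it was 0.52 without PGE2 replicate 2 and 0.80 without PGE2 replicate 1. The AA change missed the threshold with DESeq2 (adjusted p = 0.0901) and without AA replicate 2 (edgeR adjusted p = 0.0592).

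A group of peaks upstream of Ets2 rose with AA. The peak 27.5 kb upstream of the start (chr16:95674075-95675687) read 22.2 and 24.0 CPM with vehicle, 34.8 and 34.9 with AA, and 27.0 and 29.2 under PGE2. AA was highest here, which is the reverse of the order at the start. Its log2 change was 0.59 ± 0.08 with AA (edgeR adjusted p = 2.89e-07) and 0.28 ± 0.09 with PGE2 (edgeR adjusted p = 0.0123). The PGE2 call was lost without Vehicle replicate 1, where the change was 0.22, and without PGE2 replicate 2, where it was 0.23. It also missed the threshold with DESeq2 (adjusted p = 0.224). The peak 16.4 kb upstream (chr16:95685650-95686283) read 42.5 and 49.8 CPM with vehicle, 54.3 and 53.0 with AA, and 45.3 and 43.2 in the PGE2 libraries. Its AA change of 0.22 ± 0.07 (edgeR adjusted p = 0.0134) was 0.11 without Vehicle replicate 1, with no call, and was also lost without AA replicate 1. DESeq2 did not call it (adjusted p = 0.251). The peak 9.8 kb upstream (chr16:95692305-95692997) went the other way, from 13.7 and 14.0 CPM to 10.9 in both AA libraries and to 11.4 and 11 with PGE2. Its calls (edgeR adjusted p = 0.0178 with AA and 0.0481 with PGE2) were lost when any library of the groups compared was left out. Neither passed with DESeq2 (adjusted p = 0.3 and 0.376). The peak 2.3 kb upstream (chr16:95699567-95700629) read 83.6 and 82.0 CPM with vehicle, 83.0 and 83.3 with AA, and 73.5 and 75.5 under PGE2, a fall of 0.15 ± 0.05 with PGE2 on the log2 scale (log2 change -0.15, edgeR adjusted p = 0.0341). That call was lost without either vehicle library or without PGE2 replicate 1, and with DESeq2 (adjusted p = 0.392). In all, 6 Ets2 peaks were higher and 1 lower with AA, and 4 were higher and 2 lower with PGE2. The locus sum was 505 and 528 CPM with vehicle, 549 and 554 with AA, and 500.0 and 493 after PGE2. It was higher by 0.09 ± 0.03 with AA (edgeR adjusted p = 0.0105), a call that was lost without Vehicle replicate 1 (0.07), without AA replicate 2 and with peaks taken within 10 kb only (0.04).

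Ets1, the closest relative of Ets2, had 7 peaks, each under 5 CPM with vehicle. Of the 6 tested, 1 changed. That peak, inside the gene (chr9:32747514-32748019), read 3.75 and 4.04 CPM with vehicle, 1.83 and 2.20 with AA, and 2.90 and 3.24 under PGE2. The AA libraries were lowest and the groups did not overlap. The log2 change was -0.96 ± 0.24 with AA (edgeR adjusted p = 0.00151), which DESeq2 did not call (adjusted p = 0.0938), and -0.34 with PGE2 (edgeR adjusted p = 0.258). With PGE2 edgeR and DESeq2 called 0 Ets1 peaks, and 0 had an unadjusted p under 0.05. The Ets1 locus sum was 21.5 and 23.2 CPM with vehicle, 20.3 and 23.7 with AA, and 22.4 and 20.5 in the PGE2 libraries, which overlap. When every peak inside the gene body was counted, which adds 2 peaks over 50 kb from both ends, the locus change was instead 0.26 with AA (edgeR adjusted p = 0.00928) and 0.41 with PGE2 (edgeR adjusted p = 0.000209). The direction at Ets1 thus rests on which peaks are counted, and no consensus peak had its centre within 1 kb of an Ets1 end.

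Elf3, which acts in epithelial differentiation, had the highest signal per kb of peak with vehicle and small changes. Its start peak (chr1:135258228-135259325) read 91.4 and 92.8 CPM with vehicle, 96.8 and 95.9 with AA, and 92.5 and 92.3 under PGE2. The log2 changes were 0.07 ± 0.05 with AA and 0.00 ± 0.05 with PGE2, neither of which passed. With gene-end peaks scaled on their own the PGE2 change was -0.17 (edgeR adjusted p = 0.00986), so it was lower than the shift at other gene ends. A peak 33.1 kb past the start (chr1:135225053-135225606), outside the gene, read 50.4 and 46.9 CPM with vehicle, 40.9 and 39.5 with AA, and 38.2 and 38.3 after PGE2. It fell under both treatments, with log2 changes of -0.27 ± 0.07 (edgeR adjusted p = 0.00175) and -0.35 ± 0.07 (edgeR adjusted p = 0.000158). The AA call was lost without Vehicle replicate 1 (-0.22) and with DESeq2 (adjusted p = 0.161). The peak 7.2 kb past the start (chr1:135250680-135251885) read 54.8 and 59.9 CPM with vehicle, 63.7 and 65.3 with AA, and 55.8 and 59.0 under PGE2. Its AA change of 0.17 ± 0.06 (edgeR adjusted p = 0.0332) was 0.11 without Vehicle replicate 1 and was also lost without either AA library. DESeq2 did not call it either (adjusted p = 0.348). The Elf3 locus sum was 506 and 523 CPM with vehicle, 505 and 495 with AA, and 472 and 461 in the PGE2 libraries. It was lower with PGE2 (-0.14 ± 0.03, edgeR adjusted p = 0.000481) and did not pass with AA (-0.04 ± 0.03, edgeR adjusted p = 0.279).

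Ehf, the paralogue of Elf3, had 17 peaks and a lower sum under both treatments. The sum was 330.0 CPM in both vehicle libraries, 301 and 303 with AA, and 296 and 288 under PGE2. The changes were -0.13 ± 0.03 (edgeR adjusted p = 0.00236) and -0.17 ± 0.03 (edgeR adjusted p = 0.000137). The AA change was -0.09 and did not pass with peaks within 10 kb only. Of the 4 peaks that fell with AA, the strongest, outside the gene (chr2:103325008-103326087), read 62.0 and 63.4 CPM with vehicle, 54.8 and 54.0 with AA, and 52.9 and 51.7 after PGE2, a log2 change of -0.20 and -0.26. Another, inside it (chr2:103293302-103294185), read 30.9 and 29.4 CPM with vehicle, 24.2 and 25.0 with AA, and 28.0 and 26.9 under PGE2. That is -0.29 ± 0.08 with AA (edgeR adjusted p = 0.00641), while the PGE2 change of -0.14 did not pass. The AA call of the first was lost without either vehicle library or AA replicate 2, and that of the second without Vehicle replicate 1 or AA replicate 1. Neither AA call passed with DESeq2 (adjusted p = 0.294 and 0.213), nor did the PGE2 fall of the first (adjusted p = 0.108). The 3 peaks that rose with AA were weaker, each under 3 CPM with vehicle. The peak at chr2:103313949-103314298 read 1.91 and 2.59 CPM with vehicle, 4.79 and 4.08 with AA, and 3.59 and 4.09 in the PGE2 libraries, and that at chr2:103343742-103343932 read 2.76 and 2.37, 4.29 and 3.83, and 4.27 and 4.71. Their log2 changes were 0.98 and 0.67 with AA and 0.76 and 0.81 under PGE2. The PGE2 call of the first was lost without Vehicle replicate 1 or PGE2 replicate 2, and both calls of the second without Vehicle replicate 2, its AA call also without AA replicate 1. None of the 4 calls passed with DESeq2. The peak at an end of Ehf (chr2:103302276-103304036) read 39.1 and 38.5 CPM with vehicle, 38.8 and 39.6 with AA, and 44.2 and 39.4 after PGE2, with no call.

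Elf1 had 4 peaks of its own, all inside the gene, because the rest of its peaks lie nearer to an end of Wbp4. Of these 4, 1 was called higher with AA (chr14:79551725-79552275), at 5.74 and 5.19 CPM with vehicle, 6.26 and 8.97 with AA, and 5.72 and 6.71 under PGE2. AA replicate 2 was the high library, and without it the log2 change of 0.46 ± 0.17 (edgeR adjusted p = 0.0319) became 0.20, with no call. The call was also lost without either vehicle library and with DESeq2 (adjusted p = 0.29). With PGE2 edgeR and DESeq2 called 0 of the 4, and 0 had an unadjusted p under 0.05. The Elf1 locus sum was 17.3 and 17.4 CPM with vehicle, 17.8 and 23.6 with AA, and 17.3 and 16.5 in the PGE2 libraries. It passed with AA only when AA replicate 1 was left out (0.45, edgeR adjusted p = 0.0233).

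The PEA3 genes Etv4 and Etv5 gained signal with PGE2 at the upstream start of Etv5 and over an end of Etv4, and lost it at peaks farther away. The Etv5 start peak (chr16:22438501-22440621), which covers the upstream of its 2 annotated starts, read 70.5 and 74.2 CPM with vehicle, 74.7 and 77.7 with AA, and 88.5 and 102 under PGE2. AA lay just above vehicle, and PGE2 lay above both. The log2 change was 0.07 ± 0.06 with AA (edgeR adjusted p = 0.39) and 0.40 ± 0.06 with PGE2 (edgeR adjusted p = 2.29e-06). The PGE2 change was 0.22 (edgeR adjusted p = 0.00145) with gene-end peaks scaled on their own. The peak over an end of Etv4 (chr11:101784503-101785789) read 40.0 and 38.2 CPM with vehicle, 43.1 and 41.9 with AA, and 47.3 and 48.8 after PGE2. PGE2 raised it by 0.30 ± 0.07 (edgeR adjusted p = 0.00094), which did not pass with gene-end peaks scaled on their own (0.12, edgeR adjusted p = 0.189) or with DESeq2 (adjusted p = 0.101). The AA change was 0.12 (edgeR adjusted p = 0.196).

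**Figure D3:**
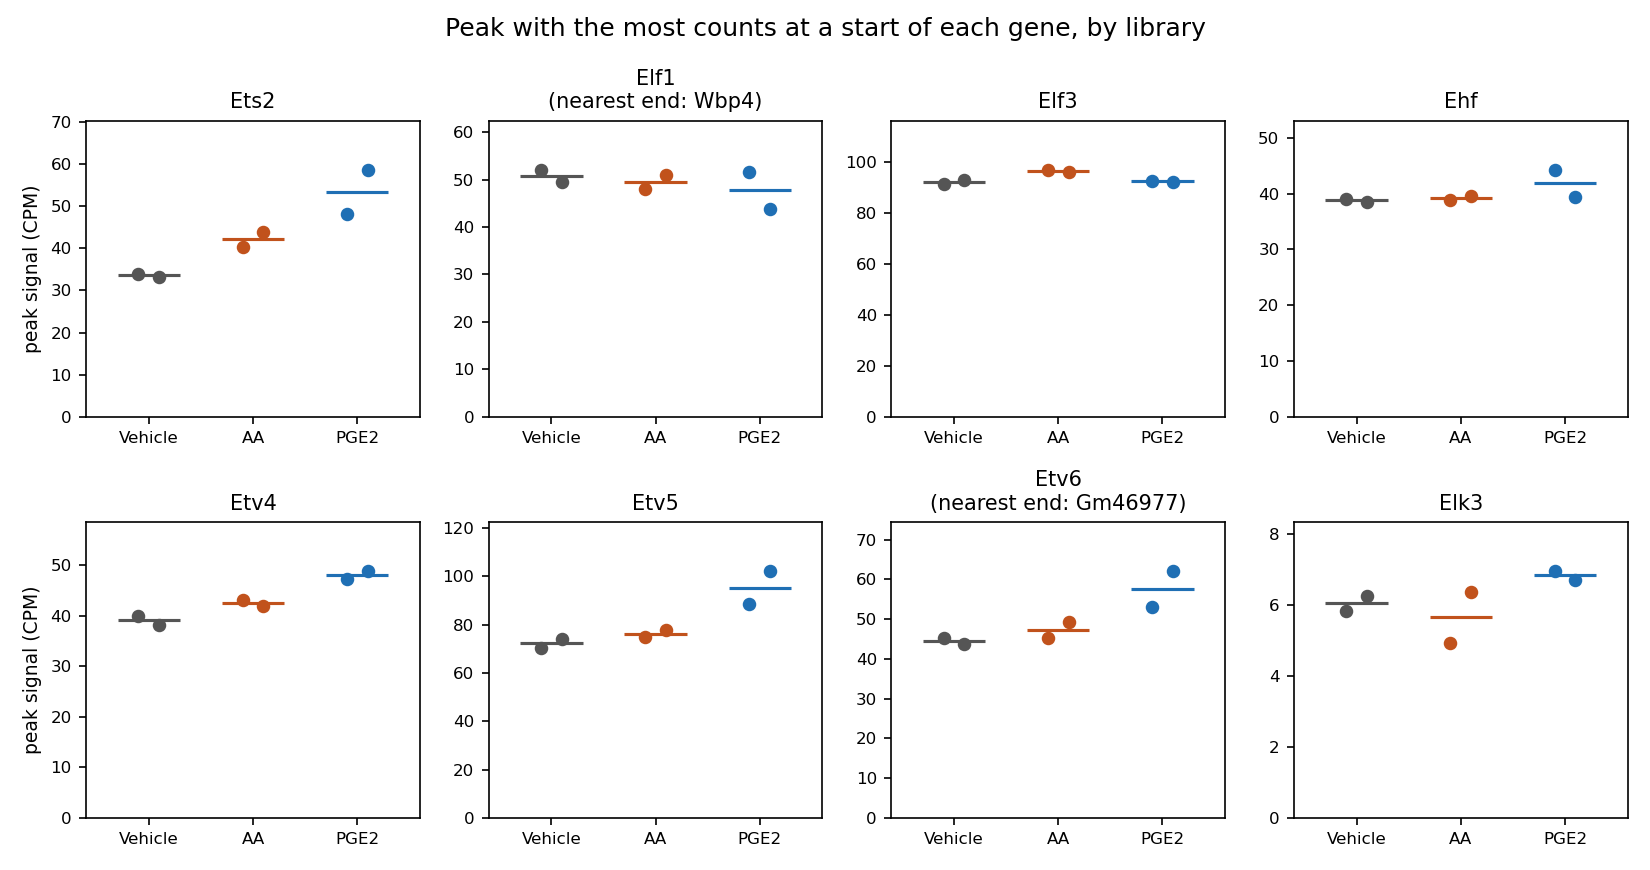
Signal (CPM, linear axis from 0) of the peak with the most counts within 1 kb of a start of each gene, or of either end for Ehf and Etv4, whose starts were not given; points are libraries and lines are group means. At Ets2, Etv4, Etv5 and Etv6 both PGE2 libraries lie above all vehicle and AA libraries, while at Elf3 the PGE2 libraries lie at the vehicle level (a log2 change of -0.17 with gene-end peaks scaled on their own).

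Away from the starts, the loss with the smallest p in this pair was at Etv4, 24.1 kb from an end of the gene and outside it (chr11:101809039-101809718). This peak read 31.9 and 31.1 CPM with vehicle, 22.1 and 20.8 with AA, and 22.6 and 22.5 under PGE2. It fell under both treatments by similar amounts, with log2 changes of -0.55 ± 0.09 with AA (edgeR adjusted p = 2e-06) and -0.48 ± 0.09 with PGE2 (edgeR adjusted p = 2.84e-05). The next peak along (chr11:101812039-101812578) read 15.2 and 15.6 CPM with vehicle, 14.4 and 12.2 with AA, and 9.77 and 9.65 in the PGE2 libraries, and fell with PGE2 (-0.67 ± 0.12, edgeR adjusted p = 2.9e-05). A weak peak inside Etv4 (chr11:101776902-101777217) read 1.15 and 1.30 CPM with vehicle, 2.11 and 2.69 with AA, and 3.05 and 1.77 under PGE2. Its calls, 0.96 ± 0.32 with AA (edgeR adjusted p = 0.02) and 0.98 ± 0.32 with PGE2 (edgeR adjusted p = 0.0209), were lost without either vehicle library and without AA replicate 2 or PGE2 replicate 1, respectively. DESeq2 called this weak peak higher in neither comparison (adjusted p = 0.206 with AA). The Etv4 locus sum was 133 and 130.0 CPM with vehicle, 119 and 111 with AA, and 119 and 113 after PGE2. It fell by 0.20 with AA (log2 change -0.20 ± 0.05, edgeR adjusted p = 0.0028) and by 0.19 with PGE2 (log2 change -0.19 ± 0.05, edgeR adjusted p = 0.00363). The changes were 0.03 and 0.12 with peaks within 10 kb only, which leaves out both peaks that fell. Both calls were also lost without Vehicle replicate 1 (-0.18 and -0.17), and the AA call without AA replicate 2 (-0.15). Neither passed with DESeq2 (adjusted p = 0.0503 and 0.0661).

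In Etv5, the peak 9.2 kb past the downstream start (chr16:22428626-22429621) read 28.8 and 26.3 CPM with vehicle, 20.8 and 19.3 with AA, and 19.2 and 22.0 under PGE2. It fell with both, at -0.46 ± 0.09 (edgeR adjusted p = 0.000159) and -0.42 ± 0.09 (edgeR adjusted p = 0.000562). The PGE2 change did not pass with DESeq2 (adjusted p = 0.0565). The peak 3.7 kb past the downstream start (chr16:22434562-22434829) lies inside the gene and read 2.68 and 2.98 CPM with vehicle, 5.35 and 5.79 with AA, and 3.74 and 3.55 in the PGE2 libraries. Its log2 change was 0.97 ± 0.20 with AA (edgeR adjusted p = 0.000135) and 0.36 ± 0.22 with PGE2 (edgeR adjusted p = 0.232). The largest fall of any ETS gene peak, singled out after its values were seen, was at the far end of Etv5 (chr16:22381885-22382312), with 25 and 26 counts with vehicle, 14 and 5 with AA, and 23 and 20 under PGE2. Its log2 change with AA was -1.43 ± 0.39 (edgeR adjusted p = 0.00427), on few counts. The Etv5 locus sum was 165 and 169 CPM with vehicle, 157 and 159 with AA, and 167 and 185 after PGE2, and passed against vehicle with neither. Over peaks within 10 kb only it was higher with PGE2 (0.19, edgeR adjusted p = 0.00455), and without PGE2 replicate 1 it was higher at 0.16.

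Etv6, the polymerising repressor, carried the most losses. Of its 15 peaks, 2 were higher and 7 lower with AA, and 2 were higher and 6 lower with PGE2. The peak 17.8 kb past its start, inside the gene (chr6:134053016-134054040), read 10.3 and 9.08 CPM with vehicle, 5.56 and 4.98 with AA, and 5.65 and 4.86 under PGE2. All 4 treated libraries lay below both vehicle libraries. The log2 changes were -0.87 ± 0.15 with AA (edgeR adjusted p = 1.24e-05) and -0.88 ± 0.15 with PGE2 (edgeR adjusted p = 1.68e-05). The larger of the 2 gains was at the other end of the gene, 6.9 kb before its far end (chr6:134262679-134263775). That peak read 5.90 and 5.34 CPM with vehicle, 13.7 and 13.3 with AA, and 11.5 and 11.2 in the PGE2 libraries, from 70 to 194 counts per library. It rose 2.40-fold with AA (log2 change 1.26 ± 0.13, edgeR adjusted p = 4.79e-10) and 2.02-fold with PGE2 (1.01 ± 0.14, edgeR adjusted p = 3.06e-07). The other gain, named after its values were seen, lay 37.3 kb past the start (chr6:134072616-134073292), inside the gene. It read 6.97 and 5.87 CPM with vehicle, 10.4 and 9.06 with AA, and 9.69 and 8.26 under PGE2, with log2 changes of 0.61 ± 0.14 (edgeR adjusted p = 0.00106) and 0.48 ± 0.15 (edgeR adjusted p = 0.0125). Neither passed with DESeq2, and the PGE2 call was lost without Vehicle replicate 2 or PGE2 replicate 1 (0.36 in each).

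The direction of the Etv6 sum depends on the window. Over all 15 peaks it was 142 and 149 CPM with vehicle, 129 and 125 with AA, and 125 and 118 under PGE2, so it was lower by 0.20 with AA (log2 change -0.20 ± 0.04, edgeR adjusted p = 0.00161) and by 0.26 with PGE2 (-0.26 ± 0.04, edgeR adjusted p = 0.000128). With peaks within 10 kb only, where the peak that rose carries the sum, the changes were 1.23 (edgeR adjusted p = 2.85e-06) and 0.91 (edgeR adjusted p = 8.66e-05). The AA call was lost without Vehicle replicate 2 (-0.16, edgeR adjusted p = 0.0575).

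**Figure D4:**
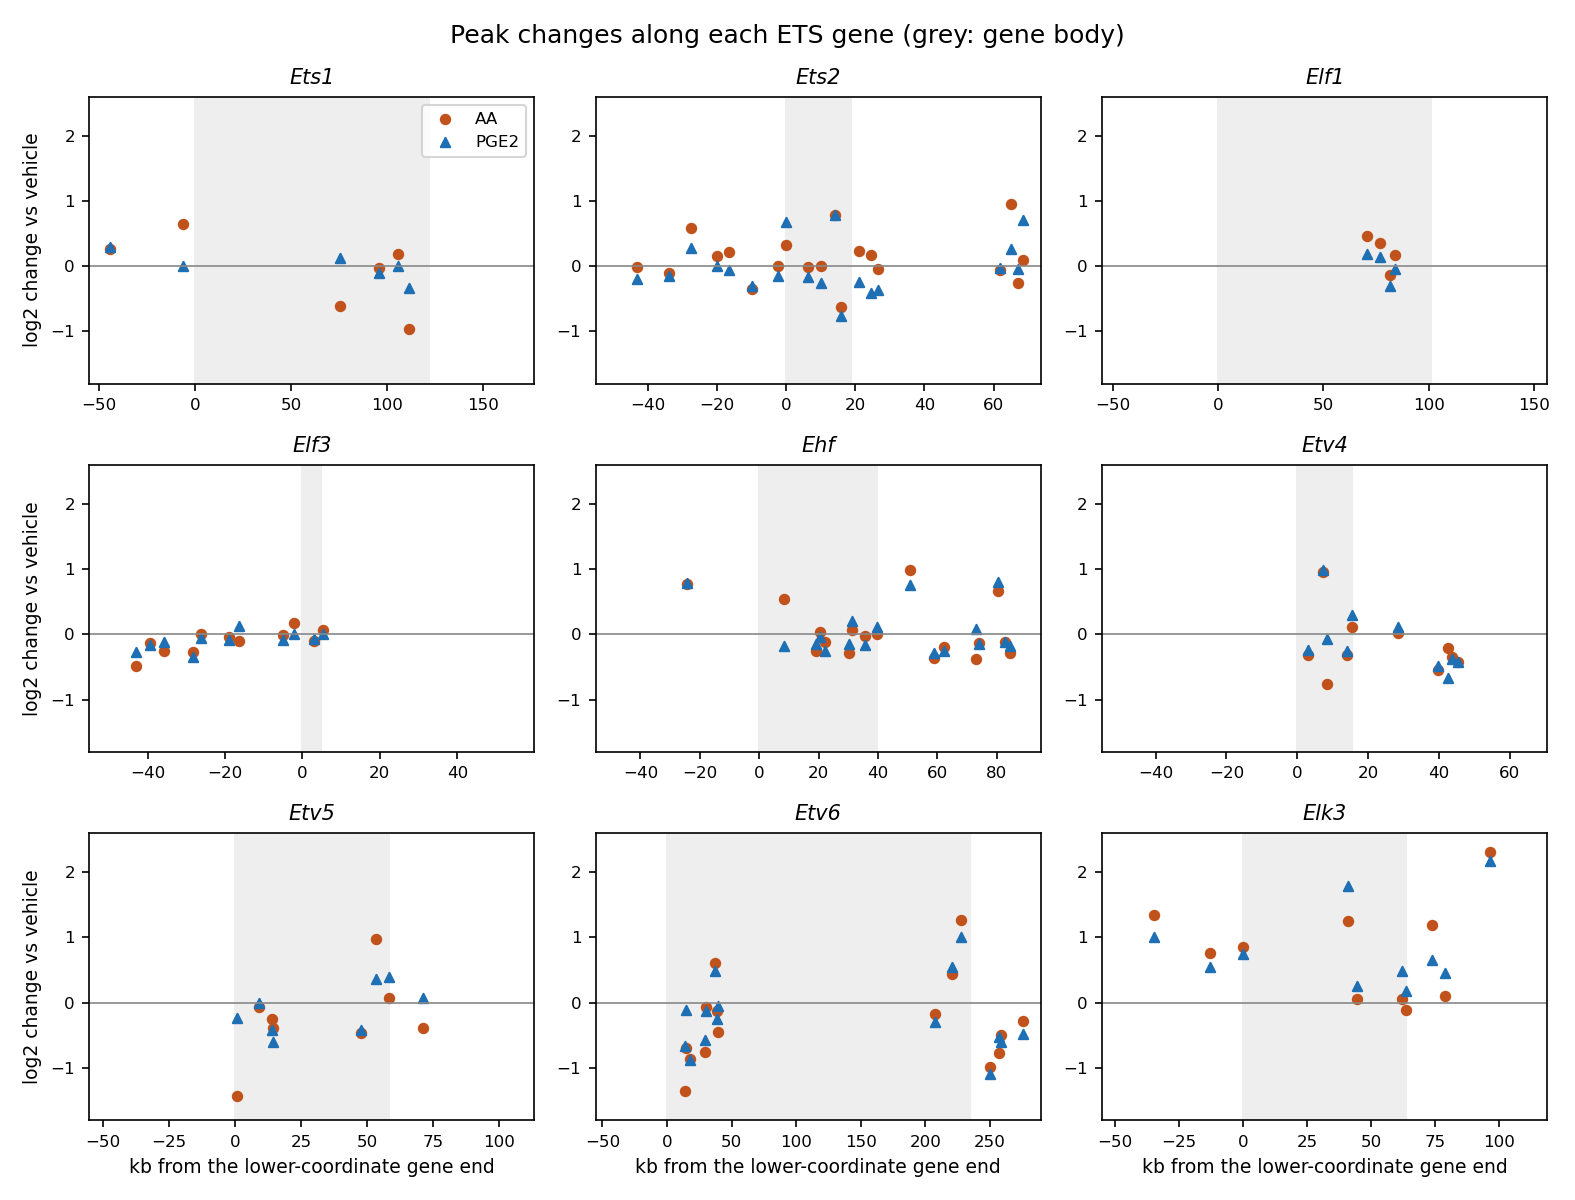
The log2 change against vehicle of every tested peak by its distance in kb from the gene end with the lower coordinate, with the gene body in grey; circles are AA and triangles PGE2. In Etv6 the peaks near the start lie mostly below 0 and the peak 6.9 kb before the far end lies above 1 in both, and at Elk3 the change over 2 lies outside the gene.

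Elk3, the SRF partner, had the lowest signal per kb of peak with vehicle and the largest gain at a single peak. The peak 32.6 kb upstream of its start, outside the gene (chr10:93343450-93343991), read 1.68 and 1.75 CPM with vehicle, 8.51 and 8.65 with AA, and 7.55 and 8.02 after PGE2. These values stand on 22 and 23 counts, 121 and 106 counts, and 99 and 104 counts. It rose 4.97-fold with AA (log2 change 2.31 ± 0.20, edgeR adjusted p = 1.5e-12) and 4.51-fold with PGE2 (2.17 ± 0.20, edgeR adjusted p = 4.94e-11), the largest gains of the 100 peaks in both comparisons. The start peak (chr10:93310150-93311623) did not follow. It read 5.82 and 6.26 CPM with vehicle, 4.93 and 6.36 with AA, and 6.94 and 6.71 under PGE2, with log2 changes of -0.11 ± 0.17 (edgeR adjusted p = 0.661) and 0.18 ± 0.16 (edgeR adjusted p = 0.461).

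In all, 5 of 10 Elk3 peaks were higher with AA and 2 with PGE2. None was called lower in either comparison by edgeR or DESeq2, and 0 had an unadjusted p under 0.05 on that side. The locus sum was 26.3 and 28.6 CPM with vehicle, 39.5 and 41.6 with AA, and 42.5 and 39.9 in the PGE2 libraries. It rose by 0.56 ± 0.08 with AA (edgeR adjusted p = 3.94e-05) and by 0.59 ± 0.08 with PGE2 (edgeR adjusted p = 2.62e-05) on the log2 scale. With the counts of the upstream peak left out, the summed signal of every treated library still lay above both vehicle libraries. With peaks within 10 kb only, the changes were 0.16 (edgeR adjusted p = 0.413) and 0.23 (edgeR adjusted p = 0.177). With peaks inside a gene body given to that gene, which moves peaks between Elk3 and the overlapping Cdk17, they were 0.10 (edgeR adjusted p = 0.153) and 0.14 (edgeR adjusted p = 0.0394). Of the 10 Elk3 peaks, 3 lie inside Cdk17.

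**Figure D5:**
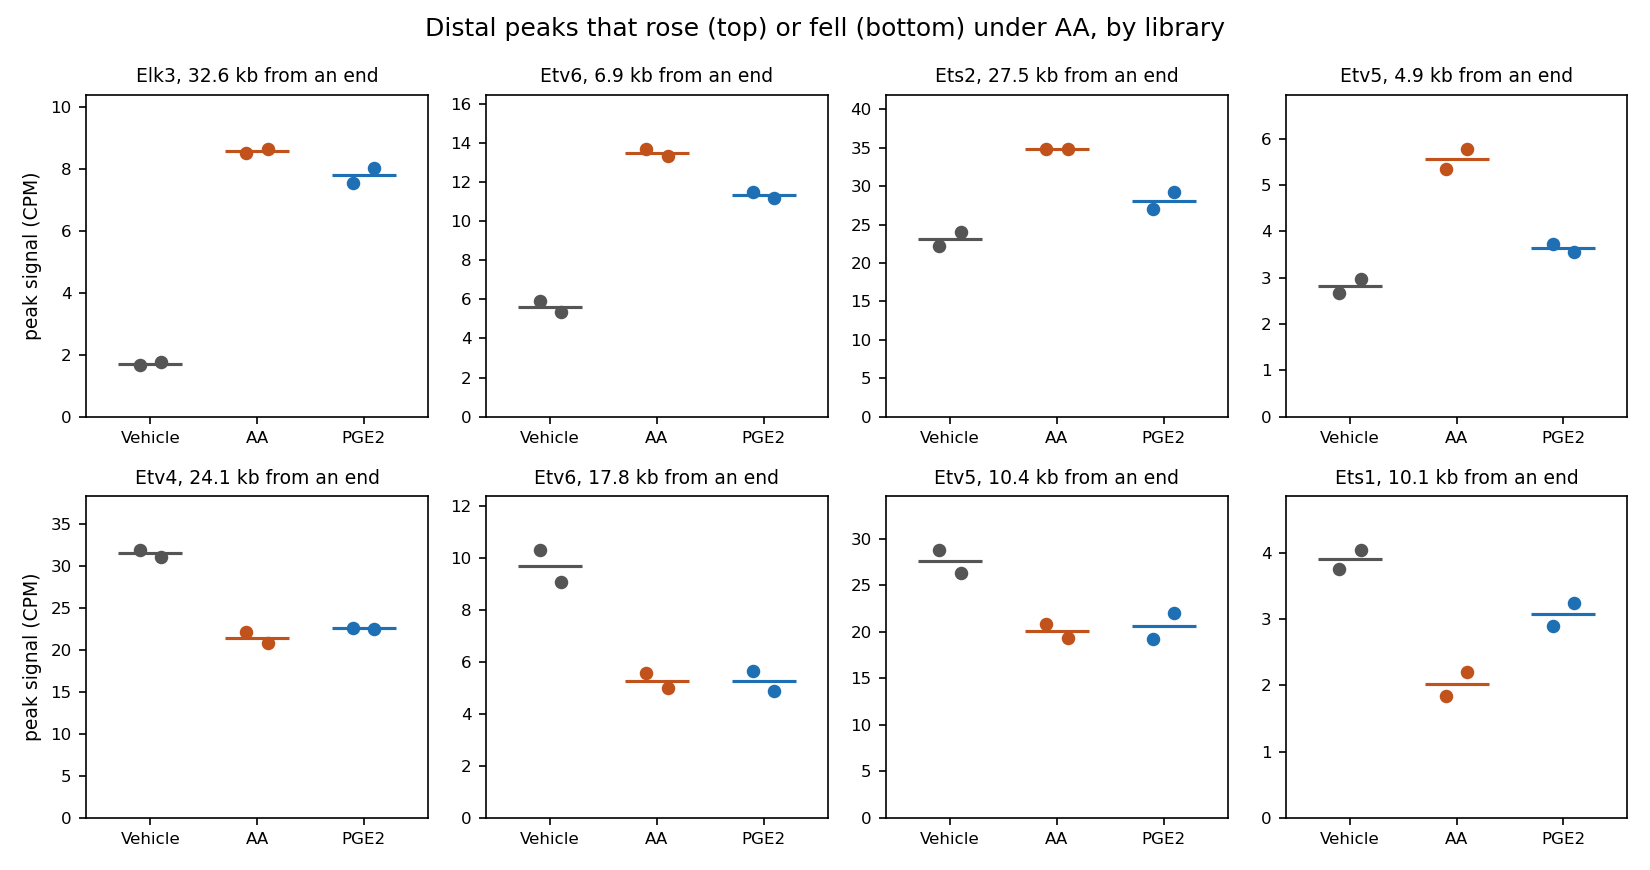
Signal (CPM, linear axis from 0) of 8 peaks away from gene starts in each library, with those higher with AA on top and those lower below; points are libraries and lines are group means. The Elk3 peak rises from under 2 to over 7 CPM in every treated library, and at the Ets2 and Etv5 peaks in the top row both AA libraries lie above the PGE2 libraries.

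Compared directly, AA and PGE2 differed at few ETS gene peaks. AA was higher than PGE2 at 6 of the 100 peaks and lower at 4, against 9.95% of all peaks called, 5.06% higher and 4.88% lower. The calls were fragile. Without AA replicate 1 there were 0 higher and 2 lower, with 12 peaks higher at an unadjusted edgeR p under 0.05, and DESeq2 called none in either direction, with 5 higher and 4 lower at an unadjusted p under 0.05. Without AA replicate 2 there were 2 higher, and without PGE2 replicate 1 there were 3. The start peaks of Ets2 and Etv5 were lower with AA than with PGE2, by log2 differences of -0.34 ± 0.08 (edgeR adjusted p = 0.00282) and -0.33 ± 0.06 (edgeR adjusted p = 0.000296). The Ehf peak at chr2:103336002-103337167 was lower too, at 8.16 and 9.22 CPM with AA against 12.7 and 11.3 with PGE2 and 11 and 11.4 with vehicle (-0.47 ± 0.13, edgeR adjusted p = 0.0133). The 2 Ets2 peaks 27.5 kb and 16.4 kb upstream were higher with AA, by 0.31 ± 0.08 (edgeR adjusted p = 0.00956) and 0.28 ± 0.07 (edgeR adjusted p = 0.00619). The second Etv4 peak above was also higher with AA (0.46 ± 0.12, edgeR adjusted p = 0.0105). At Ets2, the start and the upstream peaks thus differed between the treatments in opposite directions, although these calls rest on few libraries and on all peaks scaled together. The Ets2 start, both upstream Ets2 peaks, the Ehf peak and the Etv4 peak each lost the call without AA replicate 1. The Ets2 start lost it also without PGE2 replicate 2 (-0.20), the Ets2 peak 27.5 kb upstream also without AA replicate 2 or PGE2 replicate 1, and the Ehf peak also without PGE2 replicate 1. The Etv5 start kept its call when any 1 library was left out and missed it with DESeq2 (adjusted p = 0.11). Gene-end peaks in general held a larger share of counts with PGE2 (34.3% to 35.8%) than with AA (32.3% to 32.9%). With gene-end peaks scaled on their own, the Ets2 start changed against vehicle by 0.26 with AA and 0.49 with PGE2. The Etv5 start then changed by 0.01 and 0.22.

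Summed by gene, Ets2 (0.15 ± 0.03, edgeR adjusted p = 0.000786) and Elf3 (0.10 ± 0.03, edgeR adjusted p = 0.0143) were higher with AA than with PGE2. Etv5 was lower (-0.15 ± 0.04, edgeR adjusted p = 0.0205). Over all loci 18.6% were called, 9.83% higher and 8.76% lower. The Elf3 call was lost with counts scaled by library totals (0.08), with DESeq2, and without either AA library or PGE2 replicate 2. The Etv5 call was lost with DESeq2 and without either AA library or PGE2 replicate 2 (-0.08). Elf1 was called higher without AA replicate 1 (0.48, edgeR adjusted p = 0.0456). The Ets2 difference was 0.09 with peaks within 10 kb only and did not pass (edgeR adjusted p = 0.116). Elk3 gave no call between the treatments (-0.02, edgeR adjusted p = 0.867).

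The start peaks of Etv6 and Elf1 fell outside the rule because another gene has a nearer end, and their values were looked at beside the others. The peak at the start of Etv6 (chr6:134034603-134036288), nearer to an end of Gm46977, read 45.3 and 43.7 CPM with vehicle, 45.3 and 49.2 with AA, and 53.0 and 62.0 under PGE2. It was higher with PGE2 by 0.37 ± 0.07 (edgeR adjusted p = 8.96e-05), or by 0.19 (edgeR adjusted p = 0.0227) with gene-end peaks scaled on their own. At Elf1, the start that it shares with an end of Wbp4 (chr14:79480797-79482172) read 36.3 and 36.6 CPM with vehicle, 45.8 and 49.7 with AA, and 49.8 and 63.9 after PGE2. It was higher with AA (0.39 ± 0.10, edgeR adjusted p = 0.00848) and with PGE2 (0.64 ± 0.10, edgeR adjusted p = 0.000217). The AA call was lost without either vehicle library or AA replicate 2 (0.33). The peak at the downstream Elf1 start (chr14:79515057-79515958) had more counts and did not pass, at 52.0 and 49.4, 48.1 and 51.0, and 51.6 and 43.9 CPM, except without PGE2 replicate 1, where it was lower with PGE2 (-0.21, edgeR adjusted p = 0.0392). Near the 50 kb limit, the last peaks inside were 49983 bp from an end of Ets2, with log2 changes of 0.09 with AA and 0.71 with PGE2, and 49150 bp from an end of Ets1, the untested one with 3 and 3, 8 and 16, and 7 and 10 counts. Just outside were a peak 50034 bp from an end of Etv6, with -0.51 and -1.47, and one 51674 bp from an end of Ets1, with 0.78 and 0.49.

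Other ETS genes were read from the same fit, with no test of their difference from the 9. Of 73 tested peaks at 16 of 17 other ETS genes (Spic had none), 6 were higher and 7 lower with AA, and 9 higher and 4 lower with PGE2, which is 17.8% in each, against 30.5% of all peaks with AA and 24.9% with PGE2. The 3 loci with the smallest p with AA were Gabpa (0.19 ± 0.05, edgeR adjusted p = 0.00612), a regulator of housekeeping genes, and Spib (-0.36 ± 0.10, edgeR adjusted p = 0.00809) and Erg (-0.33 ± 0.09, edgeR adjusted p = 0.0103), which are known from lymphoid or M cells and from endothelium. Gabpa and Spib lost the call without Vehicle replicate 1, Spib also without AA replicate 2, and Erg without any 1 of the vehicle and AA libraries. None of these 3 AA calls passed with DESeq2 (adjusted p = 0.0787 for Gabpa, 0.11 for Spib and 0.165 for Erg). Spib read 32.5 and 28.5 CPM with vehicle, 25.1 and 22.4 with AA, and 23.4 and 23.6 under PGE2. With PGE2 the 3 were Erf (0.58 ± 0.10, edgeR adjusted p = 0.000145), a repressor controlled by ERK, Elk4 (0.40 ± 0.07, edgeR adjusted p = 0.000308), a ternary complex factor like Elk3, and Spib (-0.37 ± 0.10, edgeR adjusted p = 0.00493). The Spib call was again lost without Vehicle replicate 1 and with DESeq2 (adjusted p = 0.0767). Erf read 34.0 and 31.8 CPM with vehicle, 38.7 and 36.4 with AA, and 43.7 and 54.6 in the PGE2 libraries, so PGE2 replicate 2 was the highest library.

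The genes around these factors were read in the same way, and 24.9% of all peaks with PGE2 and 30.5% with AA are the background for their counts. Of 111 tested peaks at 18 genes from the EGF receptor to ERK, 17 were higher and 7 lower with AA, and 18 higher and 9 lower with PGE2. With PGE2 Map2k1, which phosphorylates ERK, was higher (0.35, edgeR adjusted p = 6.8e-05) and Egfr was lower (-0.13, edgeR adjusted p = 0.00133). Map2k1 was also higher with AA (0.22, edgeR adjusted p = 0.00452), a call lost without Vehicle replicate 1 (0.17) or AA replicate 1, while Egfr did not pass with AA (0.03, but called at -0.31 with peaks within 10 kb only and at 0.09 with gene body assignment). At 15 genes of partners and regulators of ETS factors, 24 of 103 peaks were higher and 11 lower with AA, and 20 were higher and 9 lower with PGE2. Tead4, a factor that works with YAP, was higher with AA (0.29) and with PGE2 (0.26). Det1, part of a ubiquitin ligase that acts on Etv4 and Etv5, was lower with AA (-0.44) and with PGE2 (-0.30, or 0.07 and not called with peaks within 10 kb only). Jun, a subunit of AP-1, was lower with both too, at -0.20 with AA and -0.35 with PGE2. These 6 values over all peaks of the locus passed edgeR's adjusted threshold. At 10 genes induced by ERK or PEA3 factors, 19 of 95 peaks were higher and 8 lower with AA, and 14 higher and 9 lower with PGE2. Dusp6 and Dusp4, phosphatases that act on ERK and are induced by it, were higher with AA, at 0.21 (edgeR adjusted p = 6.24e-05) and 0.15 (edgeR adjusted p = 0.002). With peaks within 10 kb only, both were at 0.07 and did not pass, and Dusp4 missed the threshold without Vehicle replicate 1 (edgeR adjusted p = 0.0552). Il17rd, an inhibitor of FGF signalling and the third locus of that list called with AA, was lower (-0.21, edgeR adjusted p = 0.0186). Its call was lost without either vehicle library or AA replicate 1 (-0.14), with DESeq2 and with peaks within 10 kb only. With PGE2 the smallest p of that list belonged to Dusp4 (-0.06, edgeR adjusted p = 0.144) and Spry2 (0.10, edgeR adjusted p = 0.158), which did not pass. Without PGE2 replicate 1, Spry2 was at 0.20 and passed (edgeR adjusted p = 0.00209).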

How the data were processed

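ATAC-seq libraries of mouse intestinal organoids were used, 2 for each of vehicle, AA and PGE2. The authors deposited raw counts of read pairs in 1 table with a shared set of peaks (median length 547 bp). Per the file headers, featureCounts 1.6.3 took the 5′ end of each read in paired mode, without strand, and counted a pair in every peak it touched. The submitters' processing notes name build mm10 and the tools MACS2, SAMtools, Picard, BWA and Trim Galore. Settings of these tools, and any shift for the transposase, were not given in the sources used here. Chromatin outside the peaks was not counted.

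Peak centres were assigned to the nearest end of 21887 protein-coding genes (RefSeq, GRCm38.p6) within 50 kb, which named 79.7% of peaks. A peak may act on a gene other than the nearest. Exons and introns were not used here, and positions relative to a start are given where the promoter table gave one. A locus value is the sum of counts over the peaks of a gene. edgeR 4.0.16 was used (TMM factors 0.969 to 1.02, filterByExpr, robust quasi-likelihood F-test, all 6 libraries in 1 fit, 3 residual degrees of freedom, Benjamini-Hochberg over 89347 peaks or 16790 loci, threshold 0.05). The filter removed 1476 peaks. The biological coefficient of variation was 4.6%, and peaks with few counts had larger standard errors. The spread at a peak drew mostly on all peaks together, with a median of 42.3 prior against 3 residual degrees of freedom. Standard errors of log2 changes were derived from the F statistics. The fit was tested on simulated data with known changes.

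Named were, for each gene, the peak with the most counts within 1 kb of a start (or end), the called peak with the smallest p in each direction against vehicle, and the 3 in each direction between AA and PGE2. Of the genes of each list, those with the smallest locus p were named; some items are not reported here. The genes and lists were chosen with earlier results of these data known. Alternatives were DESeq2 1.42.0, other scalings, no filter, a replicate block, 10 kb and gene body assignment, gene-end peaks scaled separately, and leaving out each library.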

Additional observations from a re-analysis of the deposited data

How the results depend on the processing

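Calls at the ETS gene peaks depended most on the test and on single libraries, and locus sums on the distance rule; except where an alternative's construction shows it, the cause was not tested. DESeq2 called 4 higher and 5 lower with AA, 4 and 4 with PGE2, and 0 and 0 between the treatments. It gave no adjusted value for 2 ETS gene peaks with AA, 21 with PGE2 and 57 between the treatments. At loci between the treatments it called 1 and 0. With peaks within 10 kb, fewer peaks remained: 7 and 3 with AA, 6 and 2 with PGE2, and 2 and 2 between them, and loci numbered 1 and 0 (0 lower also at an unadjusted edgeR p), 2 and 2, and 1 higher. Gene body assignment gave 22 lower peaks and 2 higher loci with PGE2, and library totals 1 higher locus between the treatments. Leaving out 1 library gave 12 to 21 higher and 11 to 17 lower peaks with AA, 9 to 14 and 9 to 14 with PGE2, and 0 to 6 and 2 to 4 between them. Loci then numbered 1 to 3 higher and 2 to 3 lower with AA, 1 to 2 and 3 to 4 with PGE2, and 1 to 2 and 0 to 1 between them.

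Against vehicle, the direction turned for the Ets1 locus under gene body assignment (0.26 with AA, 0.41 with PGE2), for the Etv4 locus (0.03, 0.12) and Etv6 locus (1.23, 0.91) within 10 kb, for the Elf3 start peak with PGE2 under separate scaling (-0.17), and, within 10 kb, for the Det1 locus with PGE2 (0.07) and the Egfr locus with AA (-0.31). RLE scaling and no filter turned none. Each library's deviation from its group mean of log2 CPM was compared between same-numbered libraries of different groups. These deviations had correlations of 0.005, -0.02 and 0.036, so the numbers were not treated as pairs. With the replicate block the AA against PGE2 count was 7 higher and 4 lower. In that setting 1 call was lost, that of the Ets2 peak 9.8 kb upstream with PGE2 (edgeR adjusted p = 0.0502). With 2 libraries a group, changes at the weakest peaks carry the largest standard errors, up to 0.47 on the log2 scale with AA.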

Other observations

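Several ETS genes hold peaks in their bodies that the 50 kb rule leaves out, and these were read beside the others; the peaks named here were those with the smallest p of each gene, singled out after their values were seen. As background for the counts here and below, 16.7% of all tested peaks were called higher and 13.8% lower with AA. With PGE2 the shares were 14.3% and 10.6%. Of the 2 left-out peaks inside Ets1, both were called higher with AA and 1 with PGE2. The stronger (chr9:32695488-32696420) read 16.2 and 14.0 CPM with vehicle, 19.6 and 22.7 with AA, and 25.6 and 30.9 under PGE2. It rose by 0.48 ± 0.11 with AA (edgeR adjusted p = 0.000642) and by 0.90 ± 0.10 with PGE2 (edgeR adjusted p = 1.88e-08) on the log2 scale, and it was stronger than every Ets1 peak within the rule. AA was lower than PGE2 there (-0.42, edgeR adjusted p = 0.00424), a call lost without AA replicate 1 (-0.30) or PGE2 replicate 2 (-0.28) and with DESeq2 (adjusted p = 0.197).

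Of the 23 peaks deep inside Etv6, 5 were higher and 4 lower with AA, against 16.7% and 13.8% of all tested peaks. With PGE2, 2 of the 23 were higher and 6 lower, against 14.3% and 10.6%. One of them (chr6:134217730-134218231) read 3.52 and 3.51 CPM with vehicle, 9.36 and 10.2 with AA, and 5.42 and 5.02 after PGE2. It was higher with AA than with vehicle (1.47 ± 0.16, edgeR adjusted p = 1.2e-09) and than with PGE2 (0.90 ± 0.15, edgeR adjusted p = 6.94e-05). Its PGE2 change (0.57 ± 0.19, edgeR adjusted p = 0.021) lost the call without either vehicle library or PGE2 replicate 1, and with DESeq2 (adjusted p = 0.222). Of the 10 peaks inside Elf1 that lie nearest to Wbp4, 2 were higher and 1 lower with AA, and 3 were higher and 1 lower with PGE2. A weak one (chr14:79504242-79504809) read 1.99 and 2.14 CPM with vehicle, 5.28 and 5.22 with AA, and 4.20 and 3.78 after PGE2, with log2 changes of 1.34 ± 0.21 (edgeR adjusted p = 3.15e-06) and 0.95 ± 0.23 (edgeR adjusted p = 0.00156). The PGE2 change of that peak did not pass with DESeq2 (adjusted p = 0.065). Of 5 peaks inside Elk3 that went to another gene, 4 were read here, all nearest to an end of Cdk17. Of these 4, 1 was called, a fall with PGE2 (chr10:93261143-93262674, -0.36 ± 0.13, edgeR adjusted p = 0.0428). That call was lost without any 1 vehicle or PGE2 library and with DESeq2 (adjusted p = 0.364).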
